A study of Mus musculus with 48 samples.

Results

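The NRF2 antioxidant response was followed through 9 genes by RNA-Seq in 48 samples of murine striatal progenitor cells. The members were taken by name from the table of normalized abundances. They are Nfe2l2, Keap1, Nqo1, Hmox1, Gclc, Gclm, Gsr, Txnrd1 and Srxn1, 9 of 18178 genes with a symbol, and all 9 passed the filter on low values that left 13409 genes for testing. The samples form 16 conditions of 3 samples each. STHdhQ111 cells, which are homozygous for a mutant huntingtin with an expanded polyglutamine stretch, received vehicle or 1 of 14 compounds that protect them from serum withdrawal. Wild-type STHdhQ7 cells received vehicle. Both lines carry the strain label C57BL/6, are conditionally immortalized and stand for 1 line each, and all cells were kept without serum for 24 hours.

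The compounds were given at 1 dose each. The 10 µM compounds were meclizine, diacylglycerol kinase inhibitor II (DKI), cyproheptadine, selisistat and loxapine. The others in this range were pizotifen at 5 µM and cysteamine at 250 µM. Sodium butyrate was used at 1 mM and 4-deoxypyridoxine (DOP) at 4 mM. Fingolimod phosphate was used at 250 nM, trichostatin A at 10 nM, nortriptyline at 1 nM, and nicotinamide and haloperidol at 0.5 nM each. Samples were collected on 3 days at 3 times, and the vehicle controls of both lines and selisistat share one set of day and time slots that no other compound has as a whole. DKI and cyproheptadine share 2 of their 3 slots with the vehicle. Neither has a sample of day 1, as their replicates 1 and 3 are both labelled day 3. Neither is among the compounds compared within their slots below. The other compounds share none, although each was collected once on every day and once at every time, so only a combination of day and time cannot be told apart from treatment there. Hence 8 of them were also compared with compounds of their own slots.

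NRF2, the product of Nfe2l2, is a transcription factor that KEAP1 holds in the cytoplasm and hands to a ubiquitin ligase for degradation. Electrophiles and oxidants modify KEAP1, and NRF2 then reaches the nucleus, pairs with small MAF proteins and binds antioxidant response elements of genes for glutathione synthesis, thioredoxin recycling, quinone reduction and heme breakdown. NRF2 is controlled largely through its protein, so its mRNA need not follow its activity. Several of the targets also have other regulators, among them BACH1, which represses Hmox1, and ATF4, a transcription factor of the integrated stress response.

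On GRCm38 the members lie on 5 chromosomes. Nfe2l2 (ENSMUSG00000015839) spans bases 75675513 to 75704641 of chromosome 2 and Srxn1 (ENSMUSG00000032802) bases 152105516 to 152111376 of the same chromosome. Gclm (ENSMUSG00000028124) lies on chromosome 3 from 122245557 to 122270732. Chromosome 8 holds Gsr (ENSMUSG00000031584) from 33652523 to 33698163, Hmox1 (ENSMUSG00000005413) from 75093621 to 75100589 and Nqo1 (ENSMUSG00000003849) from 107388225 to 107403206. Keap1 (ENSMUSG00000003308) lies on chromosome 9 from 21229730 to 21239361 and Gclc (ENSMUSG00000032350) on the same chromosome from 77754535 to 77794485. Txnrd1 (ENSMUSG00000020250) spans 82833951 to 82897712 of chromosome 10, and the gene Eid3 overlaps it on the same strand. The annotation also places Gm6061 on the strand of Gclm within its span, so reads of these genes could have been divided by the counting.

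The windows of 250 bases before a start site are shown for Srxn1, Txnrd1 and Gclm, which hold a match to a motif and of which Srxn1 and Txnrd1 moved together below, and for Nqo1, which moved apart from them. They come from RefSeq on GRCm38.p6, in which 6 members had 8 windows. Hmox1, Gclc and Gsr were not among them. Capitals mark the letters TGACNNNGC, the core of the antioxidant response element, or TGANTCA, the letters read by AP-1 and related factors, on either strand. A stretch can hold both motifs at once. The Srxn1 window is chr2:152105274-152105523, the Txnrd1 window chr10:82858956-82859205 and the Gclm window chr3:122245307-122245556, all on the plus strand, and the Nqo1 window is chr8:107403206-107403455 on the minus strand.
Srxn1: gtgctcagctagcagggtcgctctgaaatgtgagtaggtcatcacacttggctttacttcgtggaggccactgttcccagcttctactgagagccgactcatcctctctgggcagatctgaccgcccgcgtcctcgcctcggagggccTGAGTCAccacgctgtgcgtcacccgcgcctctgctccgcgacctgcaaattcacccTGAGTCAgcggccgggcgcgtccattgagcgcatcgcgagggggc
Txnrd1: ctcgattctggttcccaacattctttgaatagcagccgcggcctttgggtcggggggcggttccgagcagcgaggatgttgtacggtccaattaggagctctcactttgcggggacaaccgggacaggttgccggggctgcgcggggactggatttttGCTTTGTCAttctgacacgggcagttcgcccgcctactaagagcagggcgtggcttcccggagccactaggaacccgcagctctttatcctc
Gclm: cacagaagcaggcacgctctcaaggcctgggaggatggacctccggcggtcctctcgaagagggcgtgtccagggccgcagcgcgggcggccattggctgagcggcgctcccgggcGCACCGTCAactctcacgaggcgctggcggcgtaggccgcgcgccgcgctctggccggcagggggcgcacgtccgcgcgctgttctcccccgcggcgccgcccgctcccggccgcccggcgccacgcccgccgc
Nqo1: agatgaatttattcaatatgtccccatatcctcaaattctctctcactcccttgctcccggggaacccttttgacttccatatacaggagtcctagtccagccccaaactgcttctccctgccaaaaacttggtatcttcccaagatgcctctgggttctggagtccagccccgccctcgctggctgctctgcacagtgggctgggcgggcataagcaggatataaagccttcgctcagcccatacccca
Srxn1 held TGAGTCA at 102 and at 45 bases before the start. Txnrd1 and Gclm held TGACAAAGC and TGACGGTGC, read on the opposite strand, at 92 and 134 bases before it, and Nfe2l2, not printed, held TGACTCCGC. Of 32841 windows of this length, 10.2% held TGACNNNGC and 6.75% held TGANTCA, and 276 held both. The Nqo1 and Keap1 windows and the other windows of Txnrd1 held neither set of letters. Only the 250 bases before a start were searched, so a motif elsewhere in or near a gene would be missed. A link between these motifs and the changes of the members was not tested.

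The values are log2 abundances as normalized by the authors, so a difference of 1 is a doubling. They are not scaled by gene length, and levels are compared between conditions and not between genes. The median SD of a member within a condition was 0.065, and replicates of a condition correlated across genes between 0.996 and 0.999. Replicate 2 of selisistat and replicate 1 of the STHdhQ7 vehicle had the largest residuals of the fit, 0.144 and 0.138 against a median of 0.0773. Markers of the labelled cell type were mixed. Of 8 neural progenitor genes, Vim, Cdh2, Sox9 and Notch1 averaged 15.42, 10.16, 9.55 and 8.05 in STHdhQ111 vehicle cells, while Nes, Sox2, Msi1 and Fabp7 stood at 4.96, 4.81, 4.23 and 0.67. Nes and Sox2 were at 10.95 and 8.91 in STHdhQ7 cells. Among striatal genes Foxp1, Dlx1 and Dlx2 averaged 9.99, 5.84 and 5.42, whereas Ppp1r1b, Bcl11b and Drd1 lay at 2.31 or less in every sample. Of the fibroblast genes Col1a1, Col1a2, Pdgfrb and Dcn stood at 14.63, 13.03, 10.77 and 7.32, and Lum at -0.39. In bulk samples, a change in the cells present and in the RNA per cell cannot be told apart. Labels do not say whether the replicates were separate cultures, so p-values measure the spread between these samples.

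**Figure D1:**
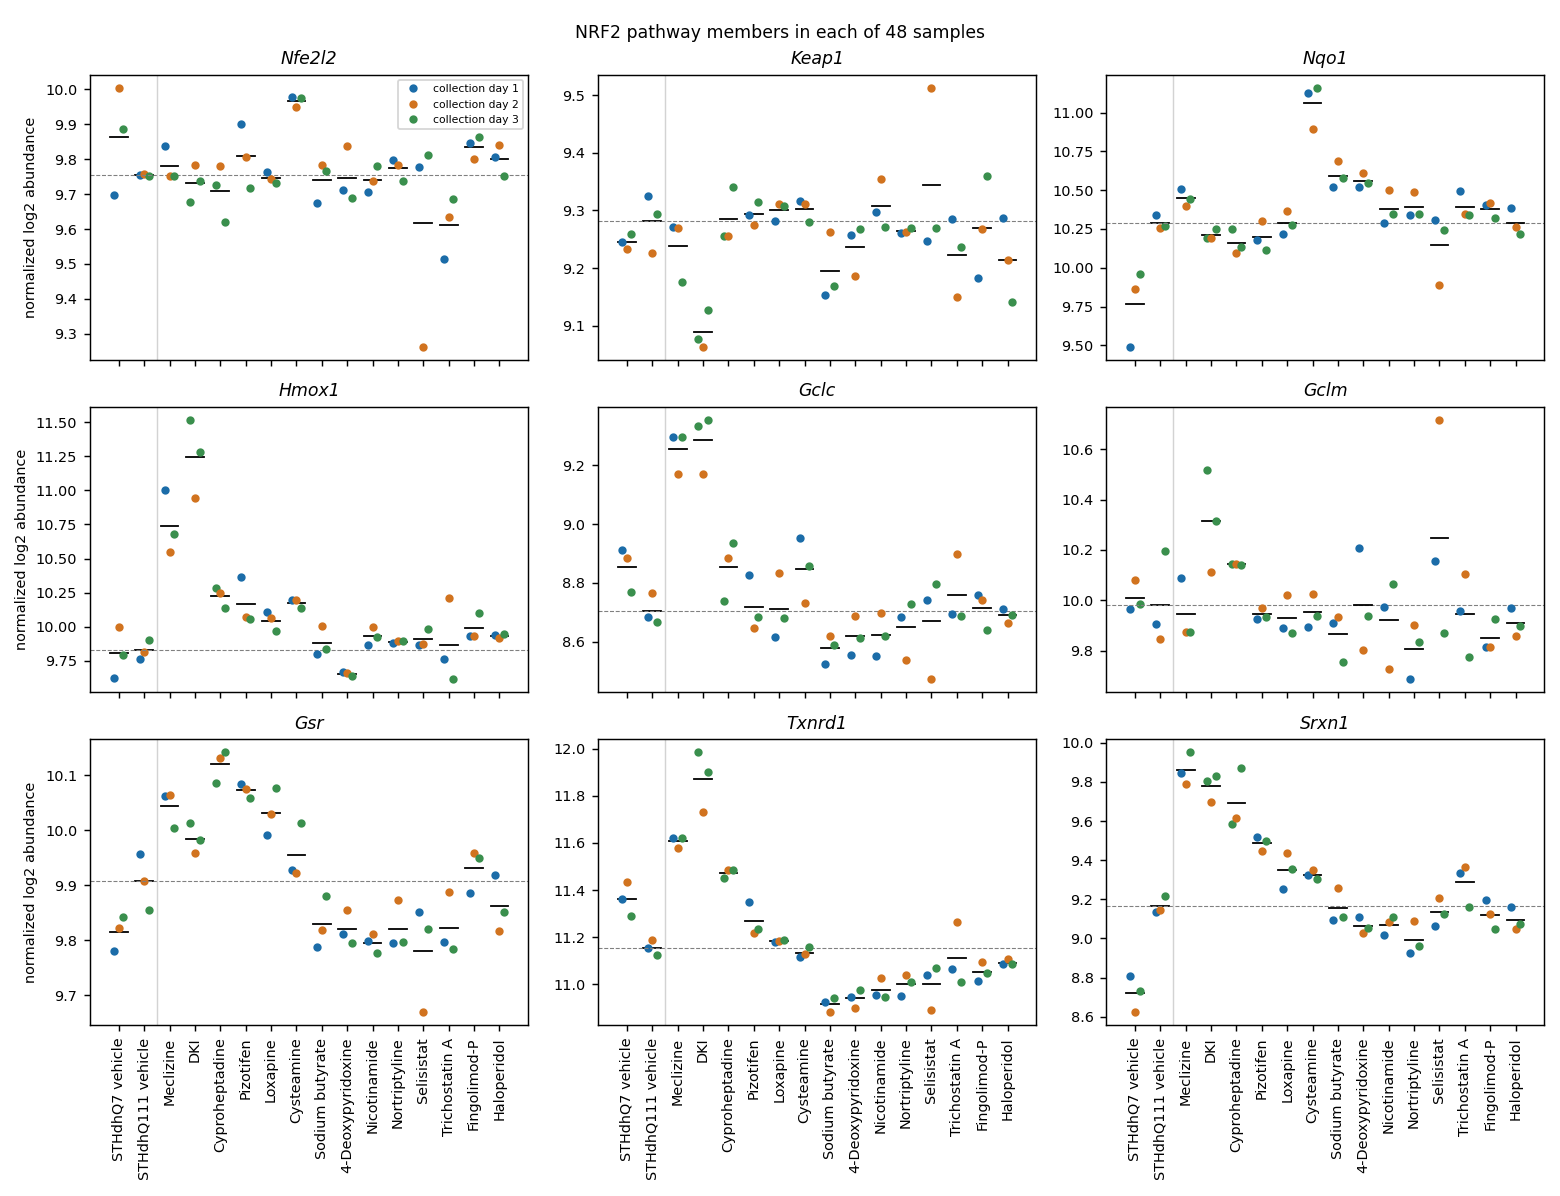
Normalized log2 abundance of each of the 9 members (y axes, which do not start at 0) in every sample of the 16 conditions (x axis). Points are samples coloured by collection day, black bars are condition means (n = 3) and the dashed line is the mean of the STHdhQ111 vehicle. Hmox1 reached 10.94 to 11.52 in DKI against 9.76 to 9.91 in the vehicle, and Nqo1 reached 10.89 to 11.16 in cysteamine against 10.26 to 10.34.

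When each of the 9 members was tested in each of the 14 compounds against the STHdhQ111 vehicle, 26 tests passed an adjusted p of 0.05 (limma, Benjamini-Hochberg over all genes tested). Of these, 22 were higher and 4 were lower. Most fell on 4 compounds, namely DKI with 6 members, meclizine with 5, cyproheptadine with 4 and pizotifen with 3. In the same order, 42.3%, 26.8%, 35.6% and 17.9% of all genes were called in these compounds. All these comparisons share the same 3 vehicle samples. The changes did not run through the 9 genes together. Hmox1 and Srxn1 were higher in all 4 of these compounds, Txnrd1 in DKI, meclizine and cyproheptadine, and Gsr in meclizine, cyproheptadine and pizotifen. Gclc was higher in DKI and meclizine, and Gclm in DKI. Nqo1 was instead higher in cysteamine, sodium butyrate and DOP.

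The regulators varied little in their mRNA. Nfe2l2 was at 9.76, 9.76 and 9.75 in the vehicle samples, and its difference from the vehicle lay between -0.14 and 0.21 over the 14 compounds. None was called by limma (1 at an unadjusted p under 0.05), and the 95% confidence intervals together ran from -0.31 to 0.37. The highest level was that of cysteamine, 9.97 ± 0.017 (SD, n = 3), with samples at 9.98, 9.95 and 9.98, all above the vehicle samples (difference 0.21, adjusted p = 0.0968). With only the compared samples in the fit, this difference had an adjusted p of 0.0118. Without the 2 samples of large residual, an alternative chosen after seeing the data, its adjusted p was 0.003. Those samples are of selisistat and STHdhQ7 cells, and the cysteamine difference stayed at 0.21. Nfe2l2 in selisistat replicate 2 stood at 9.26, against 9.78 and 9.81 in the other replicates. The order of the 16 condition means held no neighbours whose samples were separated.

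Keap1, the adaptor that marks NRF2 for degradation, changed in 1 compound. In DKI the samples were at 9.08, 9.06 and 9.13, below the vehicle samples at 9.32, 9.23 and 9.29. The difference was -0.19 (SE 0.053, adjusted p = 0.00323), and with only the compared samples in the fit it was -0.18 with an adjusted p of 0.0717. The other 13 differences lay between -0.09 and 0.06.

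Hmox1 encodes heme oxygenase, which splits heme and releases iron. It showed the largest differences of the members. Vehicle samples were at 9.76, 9.81 and 9.91. DKI samples stood at 11.52, 10.94 and 11.28, a difference of 1.42 or 2.68-fold (SE 0.116, adjusted p = 1.54e-12). Meclizine samples stood at 11.00, 10.55 and 10.68, a difference of 0.92 or 1.89-fold (SE 0.114, adjusted p = 1.06e-07). In both compounds every sample lay far above the vehicle, and the spread between replicates was wide, at SDs of 0.29 and 0.23. Cyproheptadine samples stood at 10.29, 10.24 and 10.14, a rise of 0.40 (adjusted p = 0.00667).

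Pizotifen also lay above the vehicle in Hmox1, at 10.37, 10.07 and 10.06, a difference of 0.34 (adjusted p = 0.0352). This call was lost without pizotifen replicate 1 (difference 0.23), without vehicle replicate 1 (0.30) or 2 (0.33), and with no filter on low values. Cysteamine samples, at 10.20, 10.19 and 10.13, lay within a narrow range above the vehicle, and the difference of 0.35 had an adjusted p of 0.0531. It passed the threshold in 6 of 15 alternatives, 1 of which leaves out vehicle replicate 3. Among the remaining compounds the difference lay between -0.17 in DOP, the lowest level, and 0.22 in loxapine, and none was called. In the order of the means, only meclizine and the condition below it were separated in all samples.

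Gclc and Gclm encode the catalytic and the modifier subunit of glutamate-cysteine ligase, which makes the first step of glutathione synthesis. Gclc was at 8.68, 8.77 and 8.67 in the vehicle. It stood at 9.34, 9.17 and 9.35 in DKI, a rise of 0.59 (SE 0.077, adjusted p = 7.29e-08), and at 9.30, 9.17 and 9.30 in meclizine, a rise of 0.55 (SE 0.076, adjusted p = 7.53e-07). The samples of these compounds lay above every sample of every other condition. The other 12 compounds were between -0.13 and 0.15 and were not called.

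Gclm did not move with its partner subunit in meclizine, where its samples of 10.09, 9.88 and 9.88 overlapped the vehicle samples of 9.91, 9.85 and 10.20. In DKI it stood at 10.52, 10.11 and 10.32, a difference of 0.34 (adjusted p = 0.0283) with 2 of 3 samples above the vehicle. That call was lost without DKI replicate 1 (0.23), DKI replicate 3 (0.33), vehicle replicate 1 (0.30) or vehicle replicate 2 (0.26). It was also lost with only the compared samples in the fit (0.24). Selisistat replicate 2 held the highest Gclm value of all samples, 10.72, against 10.16 and 9.87 in its other replicates.

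Gsr, the reductase that restores oxidized glutathione, moved little but with a small spread. Vehicle samples were at 9.96, 9.91 and 9.86. Cyproheptadine was the highest condition at 10.09, 10.13 and 10.14, a rise of 0.21 (SE 0.044, adjusted p = 0.000201), and its samples were separated from those of every other condition. Pizotifen followed at 10.08, 10.07 and 10.06 with a rise of 0.17 (adjusted p = 0.00584).

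Smaller Gsr differences were called in meclizine, 0.14 (adjusted p = 0.0161), and loxapine, 0.12 (adjusted p = 0.0333). The meclizine call was lost without vehicle replicate 3 (0.11), meclizine replicate 1 (0.12) or meclizine replicate 2 (0.13). For loxapine it was lost without vehicle replicate 2 (0.13) or 3 (0.10) and without loxapine replicate 2 (0.13) or 3 (0.10). Both were lost with only the compared samples in the fit. Gsr in DKI differed by 0.08, with samples at 10.01, 9.96 and 9.98, and was not called.

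Txnrd1 encodes the cytosolic reductase of thioredoxin, and it gave the largest number of calls, 3 higher and 3 lower. Vehicle samples were at 11.15, 11.19 and 11.12. DKI samples stood at 11.98, 11.73 and 11.90, a difference of 0.71 or 1.64-fold (SE 0.056, adjusted p = 4.94e-13). Meclizine samples stood at 11.62, 11.58 and 11.62 with a rise of 0.45 (adjusted p = 6.57e-08), and cyproheptadine samples at 11.45, 11.49 and 11.48 with a rise of 0.32 (adjusted p = 2.24e-05). In the order of the means DKI, meclizine and cyproheptadine came first, each separated in all samples from the next.

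At the low end of Txnrd1 were sodium butyrate, at 10.92, 10.88 and 10.94, and DOP, at 10.95, 10.90 and 10.98. Their differences from the vehicle were -0.24 (adjusted p = 0.000733) and -0.21 (adjusted p = 0.00475). Nicotinamide, given at 0.5 nM, was at 10.95, 11.03 and 10.95, a difference of -0.18 (adjusted p = 0.0305) that was lost without any 1 of its replicates (-0.17, -0.21 and -0.16) and without vehicle replicate 1 (-0.18) or 2 (-0.16). These 3 conditions share their collection slots, which the vehicle does not.

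Srxn1 encodes sulfiredoxin, which repairs overoxidized peroxiredoxins. It rose in the most compounds, 5. From vehicle samples of 9.14, 9.15 and 9.22, meclizine reached 9.84, 9.79 and 9.95, a difference of 0.69 or 1.62-fold (SE 0.066, adjusted p = 2.87e-10). DKI reached 9.80, 9.70 and 9.83 (difference 0.61, adjusted p = 1.82e-09). Cyproheptadine reached 9.59, 9.62 and 9.87 (0.52, adjusted p = 1.25e-07), and pizotifen 9.52, 9.45 and 9.50 (0.32, adjusted p = 0.000612). The samples of each of these compounds lay above every vehicle sample.

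Loxapine samples of 9.25, 9.44 and 9.36 gave a smaller Srxn1 difference of 0.18 (adjusted p = 0.0425). The call was lost without vehicle replicate 1 (0.17) or 2 (0.17), without loxapine replicate 2 (0.14) or 3 (0.18), with no filter on low values and with the collection time added. Cysteamine samples, at 9.33, 9.35 and 9.30, differed by 0.16 and were not called.

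Nqo1 encodes a quinone reductase that is widely used as a readout of NRF2. Its order of conditions differed from that of the other targets. Cysteamine, an aminothiol, was the highest condition at 11.13, 10.89 and 11.16 against vehicle samples of 10.34, 10.26 and 10.27, a difference of 0.77 or 1.71-fold (SE 0.090, adjusted p = 2.78e-06). Its samples were separated from those of every other condition. Sodium butyrate came next at 10.52, 10.69 and 10.58, with a rise of 0.31 (adjusted p = 0.00673).

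DOP followed in Nqo1 at 10.52, 10.61 and 10.55, with a difference of 0.27 (adjusted p = 0.0282). That call was lost without vehicle replicate 2 (0.25) or 3 (0.26) and without DOP replicate 2 (0.24) or 3 (0.28). Nqo1 was not called in DKI, meclizine or cyproheptadine. In meclizine its samples of 10.51, 10.40 and 10.44 lay above those of the vehicle, with a difference of 0.16 that passed with only the compared samples in the fit (adjusted p = 0.0496). Its difference was -0.08 in DKI and -0.13 in cyproheptadine, and the DKI samples of 10.19, 10.19 and 10.25 lay below those of the vehicle.

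**Figure D2:**
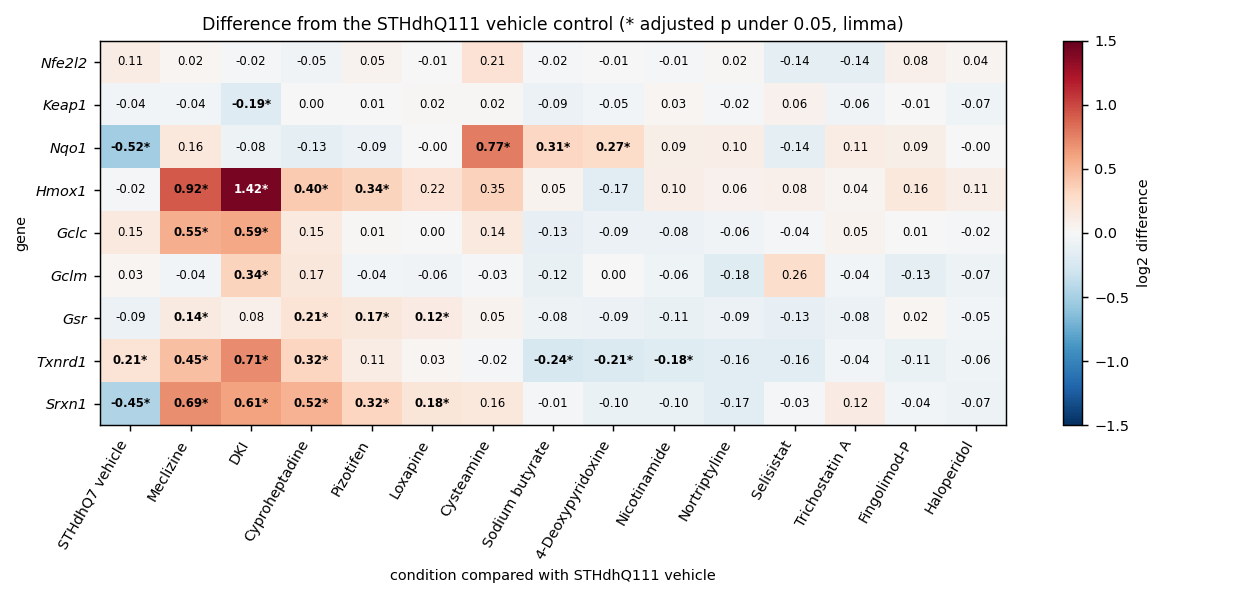
Log2 difference of each member (rows) from the STHdhQ111 vehicle (n = 3 against 3) in STHdhQ7 vehicle cells and in each compound (columns), with colour from blue (lower) to red (higher) and stars for an adjusted p under 0.05 by limma. The red block of Hmox1, Txnrd1 and Srxn1 in meclizine, DKI and cyproheptadine leaves out Nqo1, whose largest value, 0.77, is in cysteamine.

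The counts of members can be read against the share of all 13409 genes that limma called in the same comparison. DKI changed 6 of 9 members, 5 of them higher, while 42.3% of all genes were called and 20.4% were higher. Meclizine raised 5 of 9 members, against 26.8% of genes called and 13.1% higher. In cyproheptadine 4 of 9 members rose, against 35.6% called and 17.5% higher. Pizotifen raised 3 of 9, against 17.9% called and 8.86% higher, and loxapine 2 of 9, against 21.9% and 10.1%. The median difference of the 7 targets was 0.59 in DKI, 0.45 in meclizine, 0.21 in cyproheptadine, 0.11 in pizotifen and 0.03 in loxapine, where the median over all genes was within 0.01 of 0.

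In the other compounds the counts of members were small. Sodium butyrate and DOP each raised Nqo1 and lowered Txnrd1, 2 of 9 members, where 37.5% and 20.1% of genes were called. Nicotinamide changed 1 member, with 10.4% of genes called, and cysteamine 1 member, with 7.83% called. No member was called by limma in trichostatin A (13.1% of genes called), nortriptyline (3.83%), selisistat (0.515%), fingolimod phosphate (0.0597%) or haloperidol (0%). At an unadjusted p under 0.05 there were 3 members in selisistat, 2 in nortriptyline and 0 in the others of these compounds.

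To compare compounds within their own collection slots, meclizine, pizotifen, trichostatin A and fingolimod phosphate were set against haloperidol. Sodium butyrate, loxapine, DOP and cysteamine were set against the mean of nicotinamide and nortriptyline. These comparators were given at 1 nM or less, and they are compounds and not vehicle. Of 72 tests, 14 were called, and in all 14 the member was higher.

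Meclizine kept its 5 members against haloperidol, with 25.7% of genes called. The differences were 0.81 in Hmox1 (adjusted p = 1.17e-06), 0.77 in Srxn1, 0.57 in Gclc, 0.51 in Txnrd1 and 0.18 in Gsr. Pizotifen was higher in Srxn1 by 0.39, Gsr by 0.21 and Txnrd1 by 0.18, with 14.7% of genes called. The Txnrd1 call was lost without pizotifen replicate 1 (0.13) and without haloperidol replicate 1 (0.17), 2 (0.18) or 3 (0.17), and the Hmox1 difference of 0.23 was not called. With only the compared samples, Nqo1 in meclizine was also higher than in haloperidol, by 0.16 (adjusted p = 0.0113). Trichostatin A (11.1% of genes called) and fingolimod phosphate (0% called) had no member called by limma, with 2 and 0 members at an unadjusted p under 0.05.

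In the other slots, cysteamine again stood out in Nqo1, with a difference of 0.67 (SE 0.078, adjusted p = 2.23e-06) where 0.119% of genes, or 16 genes, were called. Its Srxn1 difference of 0.29 had an adjusted p of 0.0131. The Srxn1 call was lost without any 1 cysteamine replicate (0.29, 0.28 and 0.31) and without nortriptyline replicate 1 (0.28) or 3 (0.29). Loxapine was higher in Srxn1 by 0.32, Gsr by 0.22 and Txnrd1 by 0.20, with 22.8% of genes called. All 3 differences were larger than against the vehicle, and nicotinamide and nortriptyline lay below the vehicle in these members. Their means were 9.07 and 8.99 against 9.17 in Srxn1, and 9.80 and 9.82 against 9.91 in Gsr. In Txnrd1 they were 10.98 and 11.00 against 11.16, and loxapine was at 11.18.

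Sodium butyrate kept a higher Nqo1 in its slots, by 0.21 (adjusted p = 0.038), with 30.8% of genes called. This call was lost without sodium butyrate replicate 2 (0.16) or 3 (0.22), nicotinamide replicate 1 (0.19) or 3 (0.20) or nortriptyline replicate 1 (0.20) or 3 (0.19). DOP had no member called by limma, 2 at an unadjusted p under 0.05, with 10.6% of genes called. The low Txnrd1 of these compounds did not hold within the slots. Its difference was -0.07 in sodium butyrate and -0.05 in DOP, neither called, and nicotinamide and nortriptyline themselves lay below the vehicle, at means of 10.98 and 11.00 against 11.16.

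**Figure D3:**
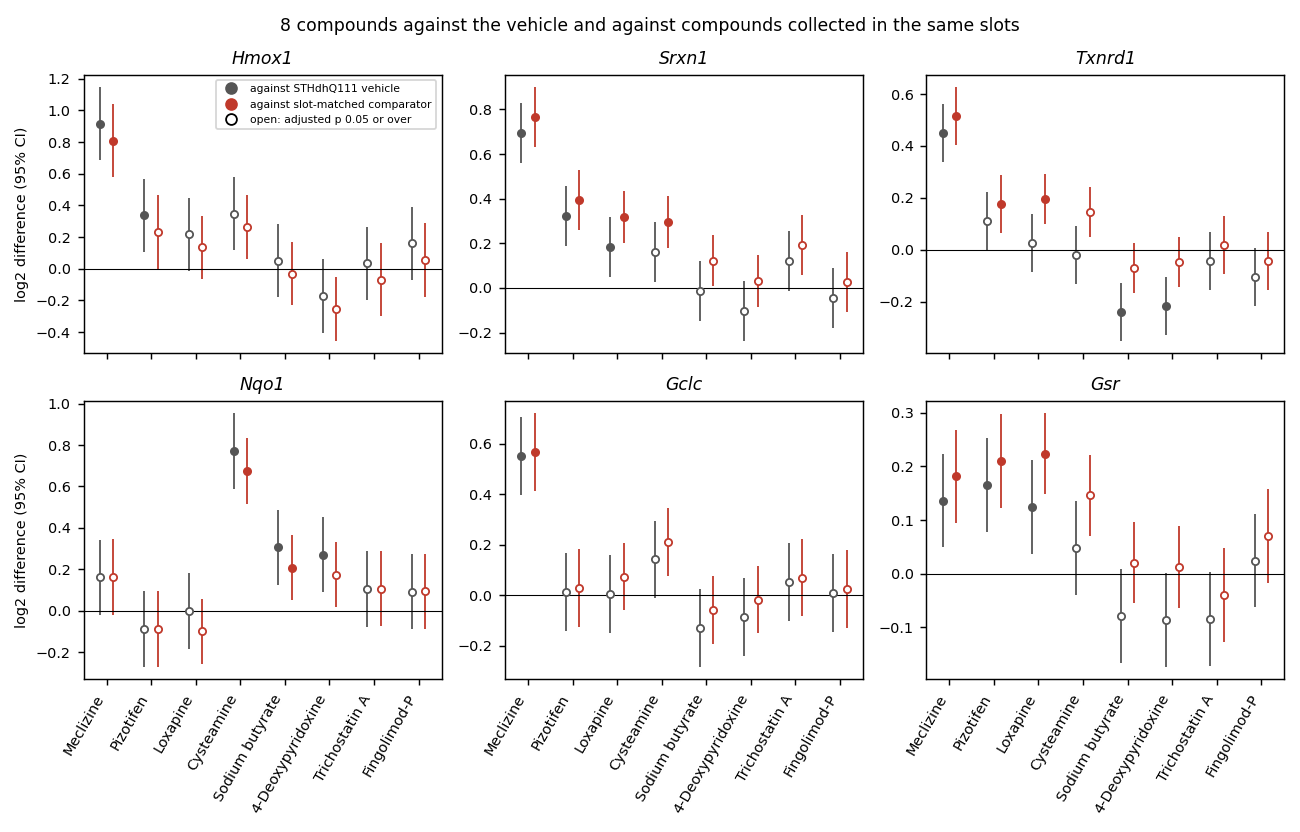
Log2 difference (y axis, with 95% confidence interval) of 6 members for 8 compounds (x axis), against the STHdhQ111 vehicle in grey and against compounds of the same collection slots in red. Filled points have an adjusted p under 0.05 by limma. Meclizine and the Nqo1 of cysteamine keep their size in both, while the Txnrd1 of sodium butyrate moves from -0.24 to -0.07.

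Groups A and B are names from the study, given there to compounds that its metabolite profiles set apart. Group A is cyproheptadine, loxapine and pizotifen, and Group B is DKI and meclizine. Compared directly, without the vehicle, 5 of 9 members differed, with 41.3% of genes called. The test takes its spread from samples within a compound, so its p-values do not measure the spread between compounds of a group. Pizotifen was given at 5 µM and the other compounds of both groups at 10 µM. Hmox1 averaged 10.14 in Group A and 10.99 in Group B, a difference of -0.85 (SE 0.074, adjusted p = 6.2e-12). Gclc differed by -0.51, Txnrd1 by -0.43 and Srxn1 by -0.31, all lower in Group A, and Keap1 was higher in Group A by 0.13 (adjusted p = 0.00223). All samples of Group A lay below all samples of Group B for Hmox1, Gclc and Txnrd1, whereas for Srxn1 the cyproheptadine sample at 9.87 reached into Group B. Nqo1, Gsr, Gclm and Nfe2l2 had differences between -0.13 and 0.06 and were not called.

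For matched doses, 3 pairs of compounds at 10 µM were compared. DKI had more Hmox1 than meclizine by 0.50 (adjusted p = 0.00434) and more Txnrd1 by 0.26 (adjusted p = 0.0021), with 8.11% of genes called, while Gclc differed by -0.04 with an interval of -0.19 to 0.12. The Hmox1 call was lost without DKI replicate 1 (meclizine minus DKI -0.37) or meclizine replicate 2 (-0.40), and the Txnrd1 call without DKI replicate 1 (-0.21). Both were lost with only the 6 compared samples in the fit.

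Cyproheptadine was higher than loxapine, also a tricyclic compound with a different ring system, in Srxn1 by 0.34 (adjusted p = 0.000692) and in Txnrd1 by 0.29 (adjusted p = 0.000529), with 10.5% of genes called. With only the compared samples the Srxn1 difference was 0.29 with an adjusted p of 0.0973. The Hmox1 difference of 0.18 had an interval of -0.06 to 0.41 and was not called. Cyproheptadine was lower than meclizine in Hmox1 by 0.52 (adjusted p = 0.00115), in Gclc by 0.40 (adjusted p = 0.000232) and in Nqo1 by 0.29 (adjusted p = 0.0197), with 18.8% of genes called. With only the compared samples the Gclc difference was -0.38 (adjusted p = 0.0572) and the Nqo1 difference -0.27 (adjusted p = 0.0664), and neither was called. The Nqo1 call was lost without meclizine replicate 1 (-0.26) or 3 (-0.30) and without cyproheptadine replicate 2 (-0.26) or 3 (-0.28).

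Pizotifen differs from cyproheptadine by a thiophene ring in place of a benzene ring and a saturated bridge, and was given at 5 µM instead of 10 µM. Side by side, with no comparison of the compounds, the differences from the vehicle were 0.40 for cyproheptadine and 0.34 for pizotifen in Hmox1, 0.52 and 0.32 in Srxn1, 0.32 and 0.11 in Txnrd1, and 0.21 and 0.17 in Gsr.

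The STHdhQ7 line was compared with the STHdhQ111 line under vehicle in matched slots, to see how the members differ with the huntingtin genotype. 3 of 9 members were called, where 55.8% of all genes were. Srxn1 stood at 8.81, 8.62 and 8.73 in STHdhQ7 cells, below the STHdhQ111 samples, with a difference of -0.45 (SE 0.066, adjusted p = 3.47e-07). Nqo1 stood at 9.49, 9.86 and 9.96, also below, with a difference of -0.52 (SE 0.090, adjusted p = 5.28e-06). Txnrd1 stood at 11.36, 11.44 and 11.29, above all STHdhQ111 vehicle samples, with a difference of 0.21 (adjusted p = 0.00154). Nfe2l2 stood at 9.70, 10.01 and 9.89 in STHdhQ7 cells, on both sides of the STHdhQ111 samples of 9.76, 9.76 and 9.75, and was not called. Without STHdhQ7 replicate 1, the low sample, and selisistat replicate 2 in the fit, Nfe2l2 passed by limma at an adjusted p of 0.00268. That alternative was chosen after seeing the data. The lines are 1 each, so the genotype cannot be told apart from other differences between them.

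The other genes of the pathway were described from lists of 31 further targets and 11 regulators of NRF2 that were tested, of 46 listed. Their counts are descriptions, to be read against the share of all genes called. In DKI 9 targets were higher and 6 lower, which is 48.4% of the 31 against 42.3% of all genes. In meclizine 8 were higher and 3 lower, 35.5% against 26.8%. Slc7a11, the cystine transporter that supplies glutathione synthesis, rose by 3.09 in DKI and 2.51 in meclizine. Sqstm1, the autophagy receptor p62, which binds KEAP1, rose by 1.16 and 0.91, and Fth1, the ferritin heavy chain that stores iron, by 0.70 and 0.65. Against these, Glrx, encoding glutaredoxin, fell by 0.50 and 0.23, and Idh1, a source of NADPH, fell by 0.63 and 0.18. The genes for NADPH supply did not rise as a list in DKI, with 0 of 6 higher and 1 lower.

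Cyproheptadine raised 9 of the 31 targets and lowered 1 (32.3% against 35.6% of all genes), and pizotifen raised 5 and lowered 1 (19.4% against 17.9%). In both, Slc7a11 had the largest rise, 2.16 and 1.47. Loxapine raised 4 and lowered 2 (19.4% against 21.9%), with Slc7a11 at 1.19. For these compounds the share of targets called was near that of all genes.

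Maff, Mafg and Mafk, the genes for the small MAF partners of NRF2, were each called higher in 5 compounds. These were DKI, meclizine, cyproheptadine, pizotifen and loxapine, in which 8.86% (pizotifen) to 20.4% (DKI) of all genes were called higher. Mafg was also called lower in 1 compound and Mafk in 2. Maff rose by 1.23 in cyproheptadine, 0.98 in loxapine, 0.81 in pizotifen, 0.64 in DKI and 0.33 in meclizine. Mafg rose by 0.64 in DKI, 0.55 in meclizine, 0.40 in cyproheptadine, 0.28 in pizotifen and 0.23 in loxapine. Bach1, the repressor, was lower in 8 of 14 compounds, in which 10.4% (nicotinamide) to 42.3% (DKI) of all genes were called. Its differences were -0.37 in sodium butyrate, -0.35 in trichostatin A, -0.29 in cyproheptadine, -0.28 in DKI, -0.27 in loxapine, -0.25 in pizotifen, -0.24 in nicotinamide and -0.22 in DOP, and it was -0.67 in STHdhQ7 cells. In the slot comparators nicotinamide and nortriptyline, Bach1 averaged 8.67 and 8.74, against 8.91 in the vehicle. Loxapine and DOP, at 8.64 and 8.68, lay close to these comparators, and sodium butyrate was at 8.54. Haloperidol, the comparator of trichostatin A and pizotifen, was at 8.82 against their 8.56 and 8.66.

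Cysteamine raised 9 of the 31 targets and lowered 0 (29.0% against 7.83% of all genes), with a list median of 0.15 against 0.00 over all genes. They included Aldh3a1 (0.47), Esd (0.41), Fth1 (0.33), Txn1 (0.32), Blvrb (0.31), Prdx1 (0.20), Tkt (0.19) and Pgd (0.18). The level of Aldh3a1 was low, at means of 2.99 in cysteamine and 2.52 in the vehicle. Txn1 and Prdx1 encode thioredoxin and a peroxiredoxin, and Pgd and Tkt are enzymes of the pentose phosphate pathway. Against the compounds of its own slots 4 of the 31 were called, with 0.119% of all genes, and they were Esd (0.35), Slc48a1 (0.24), Pgd (0.23) and G6pdx (0.21). Aldh3a1, Fth1, Txn1, Blvrb, Prdx1 and Tkt were not called there.

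Sodium butyrate, a histone deacetylase inhibitor, raised 15 of the 31 targets and lowered 3 (58.1% against 37.5% of all genes), with 15 higher and 4 lower in the slot-matched comparison (61.3% against 30.8%). Akr1b3 rose by 0.57, Fth1 by 0.52, Blvrb by 0.51, Glrx by 0.48 and Prdx1 by 0.46, while Pgd fell by 0.22. Trichostatin A, of the same class, raised 7 and lowered 1 (25.8% against 13.1%). DOP raised 5 and lowered 2 (22.6% against 20.1%), and nicotinamide raised 2 and lowered 1 (9.68% against 10.4%). In selisistat, nortriptyline, fingolimod phosphate and haloperidol 0 of 31 were called. In STHdhQ7 cells 6 targets were higher and 13 lower (61.3% against 55.8%), with Slc7a11 higher by 1.24, Ephx1 by 0.79 and Taldo1 by 0.62, and with differences of -0.76 in Glrx and -0.63 in Fth1.

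Genes of the ATF4 branch moved in the compounds that raised the most members, and in some others. All 8 of the listed genes were higher in DKI, meclizine, cyproheptadine and pizotifen, where 42.3%, 26.8%, 35.6% and 17.9% of all genes were called. In loxapine and in STHdhQ7 cells 7 of 8 were higher (21.9% and 55.8% of all genes called). Of the 8 genes, 3 were higher in sodium butyrate (37.5%) and 3 in trichostatin A (13.1%), which had no member called. In cysteamine 0 of 8 were called (7.83%). Slc7a11 is on this list and on the target list. Atf4 itself rose by 1.32 in DKI, 1.30 in cyproheptadine, 1.20 in meclizine, 0.94 in pizotifen and 0.83 in loxapine. Ddit3, encoding the stress factor CHOP, rose by 1.90 in DKI, 1.54 in meclizine, 0.95 in cyproheptadine, 0.72 in pizotifen and 0.55 in loxapine, and Chac1, a glutathione-degrading enzyme, by 2.12 in DKI and 1.79 in meclizine. Their part in the changes of the members was not tested.

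**Figure D4:**
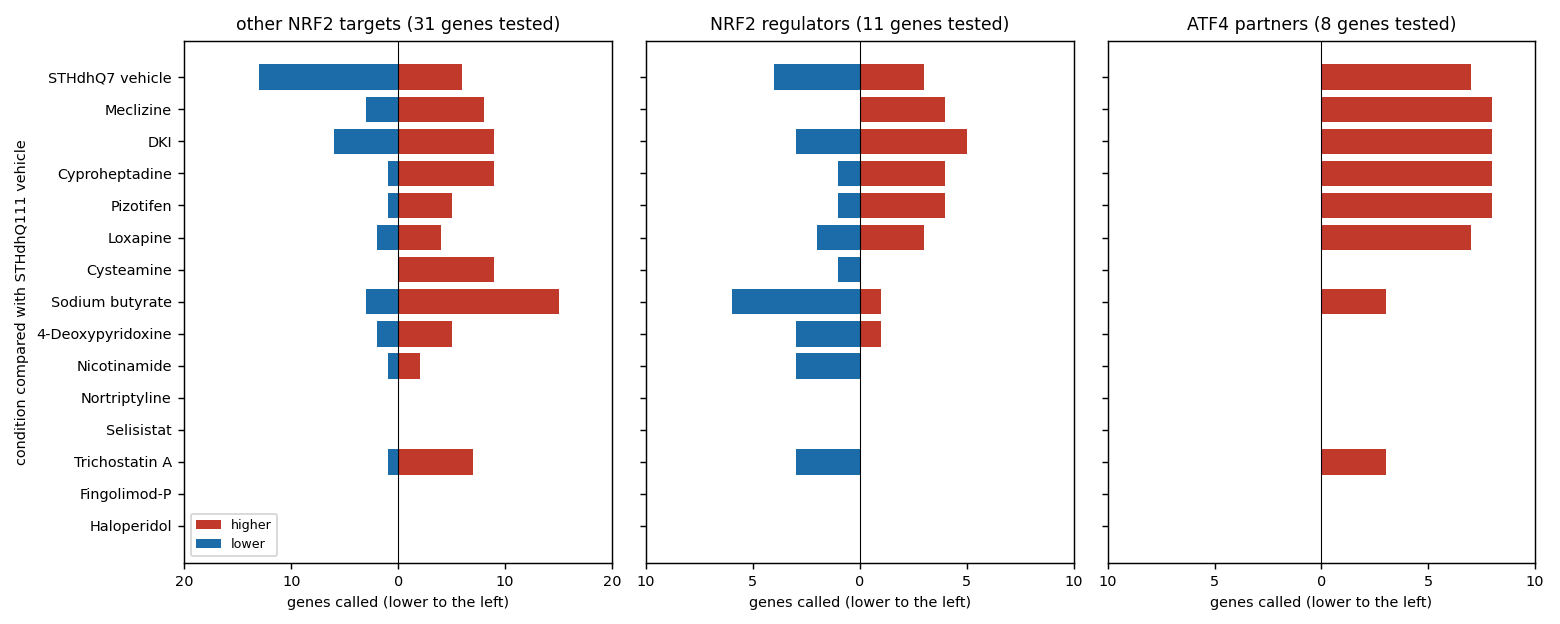
Number of genes called higher (red, right) or lower (blue, left) by limma against the STHdhQ111 vehicle among 31 other NRF2 targets, 11 regulators and 8 ATF4-related genes (x axes) in each condition (y axis). The ATF4 genes are all called higher in DKI, meclizine, cyproheptadine and pizotifen and none in cysteamine, which raised 9 targets. Sodium butyrate and trichostatin A each have 3 ATF4 genes called higher.

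Across the 15 STHdhQ111 condition means, which share the fit and the vehicle line, Hmox1, Gclc, Txnrd1 and Srxn1 had similar patterns and Nqo1 did not share them. This is given as a description. Hmox1 followed Gclc (r = 0.943) and Txnrd1 (r = 0.937), and Txnrd1 followed Srxn1 (r = 0.928). Spearman's rho, which uses ranks only, was lower for these pairs, at 0.775, 0.75 and 0.868. DKI and meclizine held the highest means of each of these genes. Nqo1 had r of -0.14 with Hmox1 and -0.17 with Srxn1, and 0.64 with Nfe2l2, where both were highest in cysteamine. Spearman's rho for Nqo1 and Nfe2l2 was 0.30. Srxn1 and Atf4 had r of 0.933 (rho 0.825) and Hmox1 and Ddit3 r of 0.932 (rho 0.686).

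Of 5706 genes with sufficient level and spread, the most like Hmox1 over these means were Sqstm1 (r = 0.977) and Larp1 (0.964). The most like Txnrd1 were Eif3c (0.984) and Trim35 (0.984), the most like Srxn1 Hexa (0.975) and Ero1l (0.960), and the most like Gclc Adi1 (0.971) and Prmt3 (0.964). For Gsr they were Ugcg (0.942) and Fam134b (0.941). The likeness was weaker for Keap1, with Borcs6 (0.872) and Agfg2 (0.864), for Gclm, with Psen2 (0.861) and Lemd2 (0.831), for Nfe2l2, with Tiparp (0.809) and Scn3a (0.714), and for Nqo1, with Cyb5a (0.770) and F3 (0.754).

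**Figure D5:**
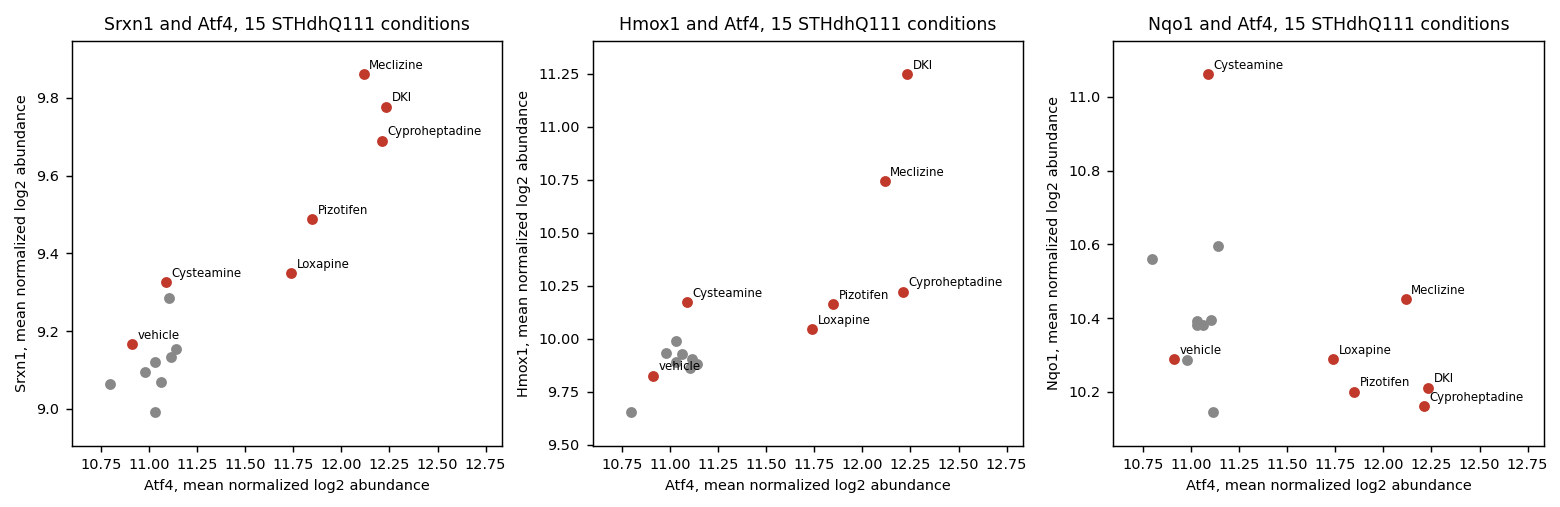
Condition means of Srxn1, Hmox1 and Nqo1 (y axes, log2) against those of Atf4 (x axes, log2) in 15 STHdhQ111 conditions, with each point 1 condition (n = 3) and red points named. Srxn1 rises along Atf4 (r = 0.933), while Nqo1 is highest in cysteamine at an Atf4 level close to that of the vehicle.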

How the data were processed

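RNA-Seq of polyadenylated RNA was analysed in 48 samples, 3 in each of 16 conditions, grouped by the sample labels. Per the submitters' processing notes and the study's methods, the authors trimmed single-end reads (Trimmomatic 0.36), mapped them to the transcriptome of GRCm38.p5 and estimated gene abundance with RSEM. The authors' own comparisons used DESeq2 with the collection day. The deposited table holds 1 normalized log2 value per gene and sample, from -2.34 to 18.62. Its transformation is not named in the sources used here, it holds no counts, and the depth per sample is therefore unknown.

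The values were used as deposited. Genes with a symbol and a mean of at least 1 were tested with limma 3.58.1 in R 4.3.3, 13409 of 18178, with a term per condition and the collection day, 30 residual degrees of freedom and a variance trend on abundance. Two-sided p-values received a Benjamini-Hochberg adjustment per comparison, and a gene under 0.05 was called. An exact permutation test of 3 samples against 3 cannot go below p = 0.1 and was not used. Intervals cover 95%. The members and gene lists were chosen with earlier results of these data known. Named are the members, Atf4, Ddit3, Slc7a11 and Chac1, and some of the 2 called genes of largest difference in each list. Of the regulators, only Maff, Mafg, Mafk and Bach1 are described. Nfe2l3, which had the largest called difference among them in sodium butyrate and DOP, and Gsk3b are not. Also named, for each member, are the 2 genes of highest Pearson correlation over 15 condition means. They were drawn from genes whose mean reached 6 and whose SD reached 0.1. Promoter windows are from RefSeq and positions from GENCODE.

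The replicate number equals the collection day in 46 of 48 samples. Deviations from the condition means had a mean correlation of -0.055 within a day and 0.028 between days, and 1 of 120 pairs of conditions had every same-number correlation over 0.1. The procedure was tested on simulated data. Alternatives were other filters, batch terms, samples in the fit, a recentred scale, limma without the trend and leaving out single samples. Plots were made in Python 3.11.15 using matplotlib 3.10.9.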

Additional observations from a re-analysis of the deposited data

How the results depend on the processing

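No alternative turned the direction of a called member. The 3 calls between the lines and the 5 between Groups A and B were kept in every alternative, as were 18 of 26 calls against the vehicle, 11 of 14 slot-matched calls and 2 of 7 calls between compound pairs. With single samples left out, the number of calls ranged from 3 to 4 between the lines, from 20 to 29 against the vehicle, from 5 to 5 between Groups A and B, from 12 to 15 in the slots and from 5 to 8 between pairs. With only the compared samples in the fit, 26 slot-matched tests and 2 tests of pairs were called. Without the 2 samples of largest residual, an alternative chosen after seeing the data, 11 tests of pairs were called. The causes were not tested. With the replicate block in place of the collection day the calls numbered 3, 27, 5, 14 and 7 in the same order, against 3, 26, 5, 14 and 7, and samples with the same number share a collection day. The added call against the vehicle is that of Hmox1 in cysteamine. Recentring each sample moved its values by less than 0.014. The unknown depth means that no counting error could be given.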
